A study of Mus musculus with 9 samples.

Results

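The miRNAs described here are the mature arms of miR-143, miR-145a, miR-199a, miR-199b and miR-214, which are known as mesenchymal miRNAs. They were chosen by name, as 10 of the 1915 mouse identifiers in each deposited table, namely mmu-miR-143-3p, mmu-miR-143-5p, mmu-miR-145a-5p, mmu-miR-145a-3p, mmu-miR-199a-3p, mmu-miR-199a-5p, mmu-miR-199b-3p, mmu-miR-199b-5p, mmu-miR-214-3p and mmu-miR-214-5p. The identifiers mmu-miR-199a-3p and mmu-miR-199b-3p held the same count in every library and were counted once, as miR-199a/b-3p, which left 9 members. Of these, 7 were listed in at least 1 library, 4 were listed in all 9 libraries, and miR-143-5p and miR-214-5p were listed in none.

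The RNA came from extracellular vesicles that a conditionally immortalized mouse podocyte line released into its medium. Podocytes are epithelial cells on the outer side of the kidney's filtering capillaries, and the line multiplied at 33 °C. Per the labels' protocols, all groups spent 10 days at 37 °C to differentiate, with 5% fetal bovine serum, before a treatment of 48 h. The high glucose group received 30 mM glucose, the mannitol group 5.3 mM glucose with 24.7 mM mannitol as an osmolality control, and the normal glucose group 5.3 mM glucose alone, with 3 libraries each. Vesicles were precipitated from the supernatant with a polymer reagent, which also collects other RNA carriers, and no label tells if serum vesicles had been removed. All libraries came from 1 cell line and separate cultures are not stated, so the spread behind each p-value is that between these samples and may be technical. A lower level in vesicle RNA can come from fewer vesicles of a kind or from less of the miRNA per vesicle, and these cannot be told apart.

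In tissues, miR-143 and miR-145 are cut from a shared transcript and are most abundant in smooth muscle cells, pericytes and fibroblasts, where they favour the contractile state. The hairpins Mir199a-2 and Mir214 share the transcript Dnm3os, which is active in mesenchyme during skeletal development, and miR-214 has been linked to kidney fibrosis. Each hairpin gives a 5p and a 3p arm, and usually 1 of the arms is loaded into the silencing complex and accumulates.

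The mature sequences of the miR-199 and miR-214 arms are shown because they decide which reads can be told apart. They are RefSeq's on GRCm38.p6, the same build as mm10, written 5′ to 3′ with bases 2 to 8, the seed that pairs with target mRNAs, in capitals.
miR-199a-3p: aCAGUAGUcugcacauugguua
miR-199b-3p: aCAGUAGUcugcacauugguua
miR-199a-5p: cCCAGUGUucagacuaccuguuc
miR-214-3p: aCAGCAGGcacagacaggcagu
miR-214-5p: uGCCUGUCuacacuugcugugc
The 3p arms of miR-199a and miR-199b are the same 22 bases, and their reads cannot be assigned to either. Among the arms shown, only those of miR-199a-3p and miR-199b-3p share a seed. Outside the members, miR-761 has the seed of miR-214-3p, and it was listed in 0 of 9 libraries. Of the 10 identifiers, 5 had a mature sequence in the RefSeq table under their name.

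The same 22 bases occur in 3 of the 1005 hairpins of the RefSeq table, each shown with that 3p arm in capitals.
Mir199a-2: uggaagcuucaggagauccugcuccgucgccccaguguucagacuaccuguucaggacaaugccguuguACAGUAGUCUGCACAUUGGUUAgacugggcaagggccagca
Mir199a-1: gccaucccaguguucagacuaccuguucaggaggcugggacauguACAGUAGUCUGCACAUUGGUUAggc
Mir199b: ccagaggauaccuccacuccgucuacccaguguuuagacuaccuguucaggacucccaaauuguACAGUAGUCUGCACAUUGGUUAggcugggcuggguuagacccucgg
Mir199a-2 lies on chromosome 1 at 162217814 to 162217923 (plus strand), overlapping exons of the noncoding RNA Dnm3os, which runs antisense to the dynamin gene Dnm3. Mir214 lies 5444 bases further along Dnm3os, at 162223368 to 162223477. Mir199a-1 lies on chromosome 9 at 21496495 to 21496564 (minus strand), in introns of Dnm2 on the opposite strand. Mir199b lies on chromosome 2 at 32318460 to 32318569 (plus strand), in introns of Dnm1, again on the opposite strand. The coordinates are those of the GENCODE M21 annotation of GRCm38.

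Total miRNA counts were 725211 to 2553690 per library, and the unit CPM below scales a count to the summed miRNA counts of its library. No library listed a count from 1 to 9, so that a listed 0 stands for 0 to 9 reads, or at most 3.52 to 12.4 CPM depending on the library. Podocyte-associated miR-30 arms summed to 106713 to 224982 CPM over the 9 libraries, with all 5 of the 5 arms listed. Together the 9 members reached 1626, 1862 and 2146 CPM in the high glucose libraries, 1368, 2093 and 1907 CPM with mannitol, and 1135, 1562 and 3502 CPM in normal glucose, in the order of replicates 1 to 3. They thus made up 0.114% to 0.350% of miRNA counts, and normal glucose held both the lowest and the highest library. The mesenchymal miRNAs were a small part of a vesicle profile led by other miRNAs, and mmu-miR-143-3p gave 59.8% to 81.7% of their counts.

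The most abundant member, miR-143-3p, stood at 1187, 1393 and 1533 CPM in high glucose, at 908, 1491 and 1223 CPM with mannitol, and at 679, 1151 and 2861 CPM in normal glucose. The groups overlapped, and normal glucose replicate 3 was the highest of all libraries while normal glucose replicate 1 was the lowest. The mean ± SD (n = 3 each) was 1371 ± 174 CPM for high glucose, 1207 ± 292 CPM for mannitol and 1564 ± 1148 CPM for normal glucose. Counting error was small beside this spread, with an exact 95% binomial interval of 2763 to 2962 CPM for normal glucose replicate 3 and of 638 to 721 CPM for normal glucose replicate 1. These intervals cover counting error only, since reads copied by PCR are not independent molecules. By its mean over all libraries miR-143-3p was 68th of the listed identifiers, and its rank ran from 51 to 86 across libraries. Its partner arm miR-143-5p was listed at 0 in all 9 libraries, so that the 3p arm exceeded it at least 95.7-fold in high glucose replicate 1 and at least 435-fold in high glucose replicate 3, taking 9 reads per library as the most that a listed 0 allows.

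The hairpins Mir143 (61649196 to 61649258) and Mir145a (61647825 to 61647894) lie on the minus strand of chromosome 18, 1301 bases apart, within the RefSeq gene model of the noncoding RNA Carmn. Next to the abundant miR-143-3p, miR-145a was close to the listing limit in every group. Its guide arm miR-145a-5p had 26, 0 and 62 counts in high glucose (35.9, 0 and 24.3 CPM), 10, 11 and 54 counts with mannitol (7.52, 6.92 and 23.8 CPM), and 18, 0 and 25 counts in normal glucose (11.7, 0 and 22.6 CPM). It was listed in 7 of 9 libraries and the groups overlapped. At such counts the exact 95% interval is wide, 23.4 to 52.5 CPM for high glucose replicate 1 and 3.61 to 13.8 CPM for mannitol replicate 1. The other arm, miR-145a-3p, had 0, 19 and 35 counts in high glucose, 0, 20 and 16 counts with mannitol, and 0, 13 and 19 counts in normal glucose. Where both were listed the arms differed by at most 3.38-fold, at a 5p to 3p ratio of 1.77 in high glucose replicate 3, of 0.550 and 3.38 in mannitol replicates 2 and 3, and of 1.32 in normal glucose replicate 3. The related miR-145b was listed in 0 of 9 libraries.

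**Figure D1:**
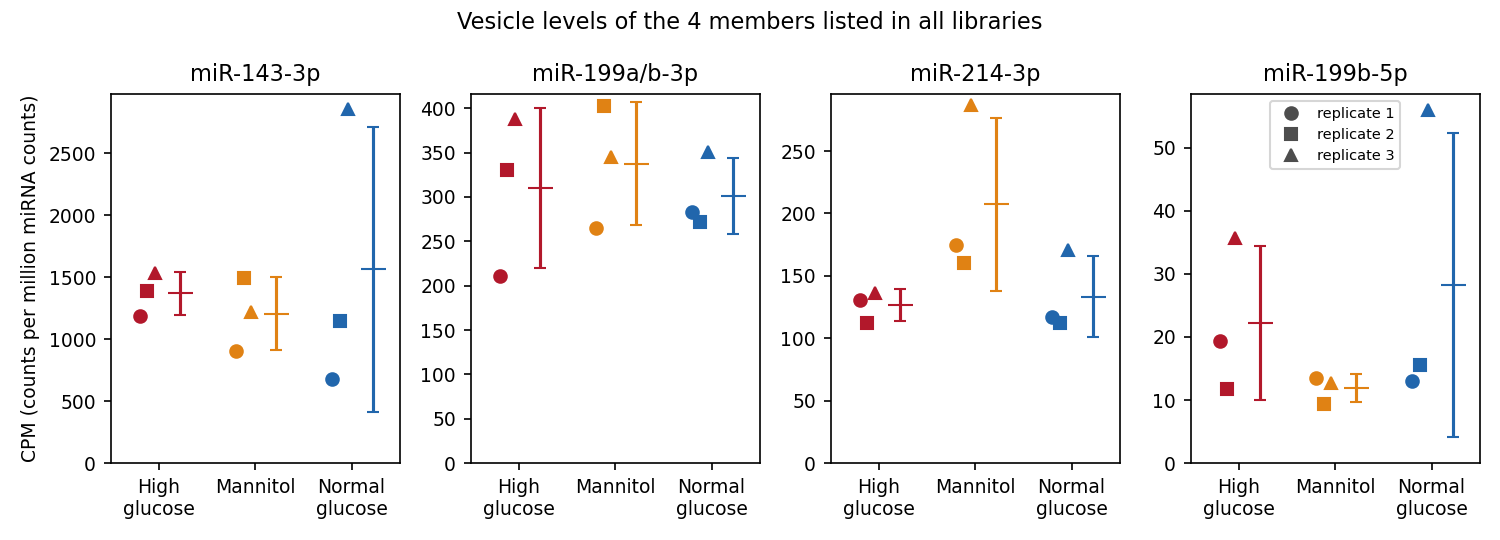
Levels in CPM relative to all miRNA counts (linear axis from 0) of the 4 members listed in all libraries. Each point is a library (3 per group, shapes give the replicate), and the bars beside the points give the mean and SD. For miR-214-3p the mannitol libraries (161 to 287 CPM) lie above the high glucose libraries (112 to 136 CPM), while for miR-143-3p and miR-199b-5p normal glucose replicate 3 stands above its group.

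Next in abundance was miR-199a/b-3p, which in other cells represses the growth kinase mTOR. It stood at 211, 331 and 388 CPM in high glucose, 265, 403 and 345 CPM in mannitol, and 283, 271 and 350.4 CPM in normal glucose. It was the steadiest of the 4 members listed throughout, with a highest to lowest ratio of 1.91 over 9 libraries and ranks from 101 to 123. The mean ± SD (n = 3 each) was 309.9 ± 90.3 CPM for high glucose, 338 ± 69.3 CPM for mannitol and 301 ± 42.8 CPM for normal glucose.

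The 5p arms, which carry another seed, were rare. The count of miR-199a-5p, which in fibroblasts represses caveolin, was 30, 0 and 38 in high glucose, 0, 16 and 18 with mannitol, and 50, 0 and 26 in normal glucose. Where it was listed, the 3p arm of miR-199a/b exceeded it 5.10-fold and 26.1-fold in high glucose, 40.0-fold and 43.5-fold with mannitol, and 8.70-fold and 14.9-fold in normal glucose. In the library of each group where it was listed at 0, the 3p arm was at least 46.9-fold (high glucose), 39.1-fold (mannitol) and 32.8-fold (normal glucose) higher. The arm miR-199b-5p was listed in all libraries, with 14, 15 and 91 counts in high glucose, 18, 15 and 29 counts with mannitol, and 20, 17 and 62 counts in normal glucose. Its levels were 19.3, 11.7 and 35.6 CPM in high glucose, 13.5, 9.44 and 12.8 CPM in mannitol, and 13.0, 15.6 and 56.0 CPM in normal glucose. The third replicates of high glucose and of normal glucose were its highest libraries, and the mannitol libraries lay close together. Reads of miR-199a-5p and miR-199b-5p come from near-identical copies and their split is uncertain.

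Encoded in Dnm3os as well, miR-214-3p stood at 131, 112 and 136 CPM in high glucose, 175, 161 and 287 CPM in mannitol, and 117, 112 and 171 CPM in normal glucose. All 3 mannitol libraries lay above all 3 high glucose libraries, while normal glucose overlapped with both. The mean ± SD (n = 3 each) was 126 ± 12.8 CPM for high glucose, 207 ± 69.2 CPM for mannitol and 133 ± 32.5 CPM for normal glucose. Its partner arm miR-214-5p was listed at 0 throughout, so the 3p arm was at least 10.6-fold higher in high glucose replicate 1 and at least 72.3-fold higher in mannitol replicate 3. The levels thus ran from miR-143-3p through miR-199a/b-3p and miR-214-3p to the rare arms. In all 9 libraries miR-143-3p was above miR-199a/b-3p and miR-199a/b-3p above miR-214-3p, whereas the rare arms overlapped with one another.

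**Figure D2:**
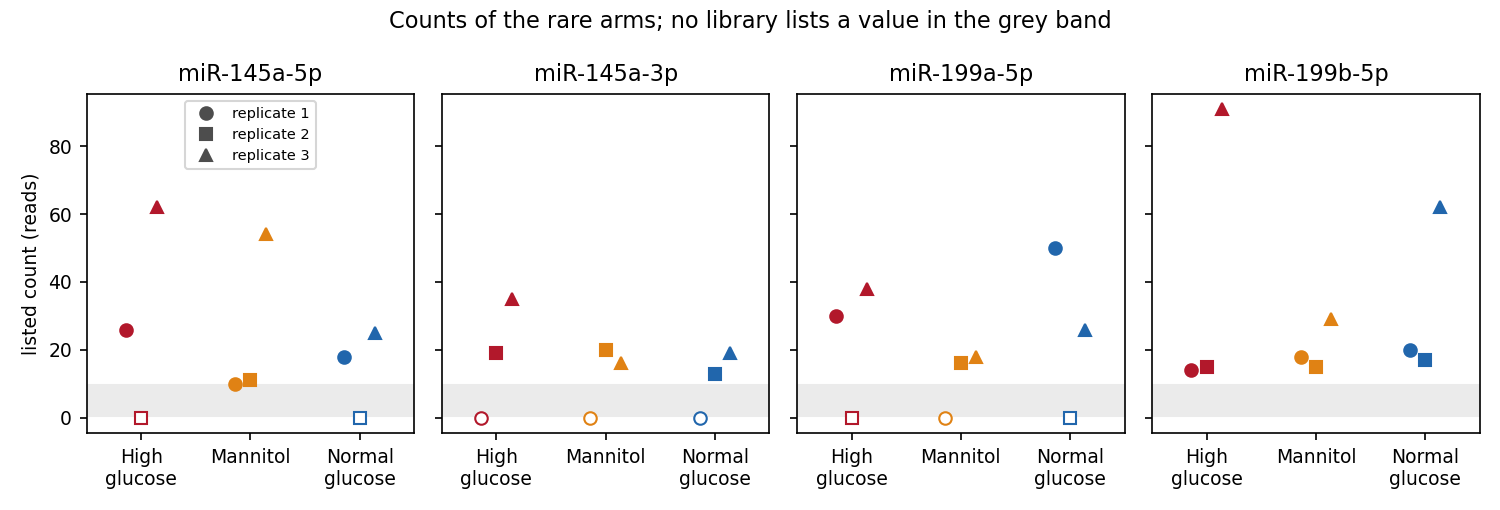
Listed counts in reads (linear axis, shared by the panels) of the 4 rare arms in each library, with shapes for the replicate and open symbols for a listed 0. No library lists a value in the grey band from 1 to 9 reads. Of the 4 arms miR-199b-5p alone is listed in all 9 libraries, and miR-145a-3p is at 0 in replicate 1 of each group.

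Between high glucose and normal glucose, which differ in glucose and in osmolality, no member was called. In edgeR's quasi-likelihood fit over all 9 libraries, 7 of the 9 members passed the filter on low counts and 0 of these 7 passed an adjusted p of 0.05, where 0 of all 361 tested miRNAs passed (0%). At an unadjusted p under 0.05 the members also numbered 0, and all tested miRNAs 10 by edgeR (2.77%), 15 by DESeq2 and 6 by limma-voom, which both called 0. The log2 fold change of miR-143-3p was -0.041 (SE 0.42), with a 95% interval of 0.523-fold to 1.80-fold. It was higher in high glucose in 6 of 9 pairs of libraries, and without normal glucose replicate 3 its log2 fold change was 0.57. For miR-199a/b-3p the log2 fold change was 0.17 (SE 0.34, interval 0.682-fold to 1.86-fold), and for miR-214-3p it was 0.032 (SE 0.32, interval 0.634-fold to 1.65-fold). The intervals of these 3 abundant arms include both lower and higher levels in high glucose. For miR-199b-5p it was -0.18 (SE 0.73), and 0.62 without normal glucose replicate 3. The 3 members listed at 0 in some libraries gave 0.91 (SE 1.45) for miR-145a-5p, 0.18 (SE 1.81) for miR-145a-3p and 0.045 (SE 1.62) for miR-199a-5p, with wide errors, and without 1 library they ranged from 0.35 to 1.78, from -0.41 to 0.68 and from -1.06 to 0.77 in that order. The fitted value was above 0 for 5 of 7 members, with a median of 0.045, where it was above 0 for 46.5% of all tested miRNAs, with a median of -0.041. No member had groups without overlap, as 9.42% of all tested miRNAs had, and the adjusted p in edgeR was 0.995 for each of the 7. With the title number as a replicate block 0 of all tested miRNAs were called, and those at an unadjusted p under 0.05 numbered 19 in place of 10, none of them a member.

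Set against mannitol, at matched osmolality, high glucose had no called member either. Here miR-214-3p was the member with the smallest unadjusted p, at a log2 fold change of -0.57 (SE 0.32, 95% interval 0.419-fold to 1.09-fold). It did not pass (unadjusted p = 0.0981, adjusted p = 0.704 in edgeR), although its libraries did not overlap and it was lower in high glucose in 9 of 9 pairs. Of all tested miRNAs, 10.2% did not overlap between these groups and 7.76% did so with high glucose lower, and 1 of 7 members beside that background is not a result about the members. Without mannitol replicate 3, its highest library, the log2 fold change was -0.24. For miR-143-3p the log2 fold change was 0.32 (SE 0.42, interval 0.672-fold to 2.32-fold) and for miR-199a/b-3p it was 0.033 (SE 0.34, interval 0.621-fold to 1.69-fold). The rare arms had 1.06 (SE 0.74) for miR-199b-5p, 1.56 (SE 1.66) for miR-199a-5p, 0.69 (SE 1.44) for miR-145a-5p and 0.69 (SE 1.81) for miR-145a-3p. Single libraries moved them widely: with 1 left out they ranged from 0.49 to 1.33 for miR-199b-5p, 0.47 to 2.23 for miR-199a-5p, 0.13 to 1.53 for miR-145a-5p and 0.12 to 1.68 for miR-145a-3p. Of the 7 members 0 passed or had an unadjusted p under 0.05, where 0 of 361 passed in edgeR (0%) and 19 (5.26%) had such an unadjusted p. DESeq2 called 1 miRNA, which was no member, with 26 at an unadjusted p under 0.05, and limma-voom called 0 with 29. With the title number as a replicate block in edgeR 0 of all tested miRNAs were called. Those at an unadjusted p under 0.05 then numbered 52 in place of 19, with miR-214-3p as the only member. The fitted value was above 0 for 6 of 7 members, with a median of 0.69 that is the value of miR-145a-5p, where it was above 0 for 46.5% of all tested miRNAs, with a median of -0.040. The rare arms with their wide errors are among these 6, and the count is not a result about the members.

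Mannitol against normal glucose shows added osmolality at the same glucose level, and again no member was called. The log2 fold change of miR-214-3p was 0.60 (SE 0.32, interval 0.942-fold to 2.44-fold), higher with mannitol in 8 of 9 pairs, and it did not pass (unadjusted p = 0.0823, adjusted p = 0.9996 in edgeR). Without mannitol replicate 3 it was 0.27. For miR-143-3p it was -0.36 (SE 0.42, interval 0.419-fold to 1.45-fold), but 0.31 without normal glucose replicate 3. For miR-199a/b-3p it was 0.14 (SE 0.34), and for miR-199b-5p it was -1.24 (SE 0.74), which became -0.36 without normal glucose replicate 3. The values of the arms with listed zeros were -1.51 (SE 1.65) for miR-199a-5p, 0.21 (SE 1.44) for miR-145a-5p and -0.51 (SE 1.82) for miR-145a-3p. Of the 7 members 0 passed and 0 had an unadjusted p under 0.05, where 0 of 361 passed (0%) and 5 (1.39%) had such a p in edgeR, 7 in DESeq2 and 3 in limma-voom, both of which also called 0. The fitted value was above 0 for 3 of 7 members, with a median of -0.36, where it was above 0 for 52.1% of all tested miRNAs, and 0 members had groups without overlap, as 3.32% of all tested miRNAs had. With the title number as a replicate block in edgeR 0 of all tested miRNAs were called. Those at an unadjusted p under 0.05 then numbered 17 in place of 5, with miR-214-3p as the only member. Both comparisons of miR-214-3p with mannitol share the mannitol libraries, and the comparisons of high glucose share the high glucose libraries.

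**Figure D3:**
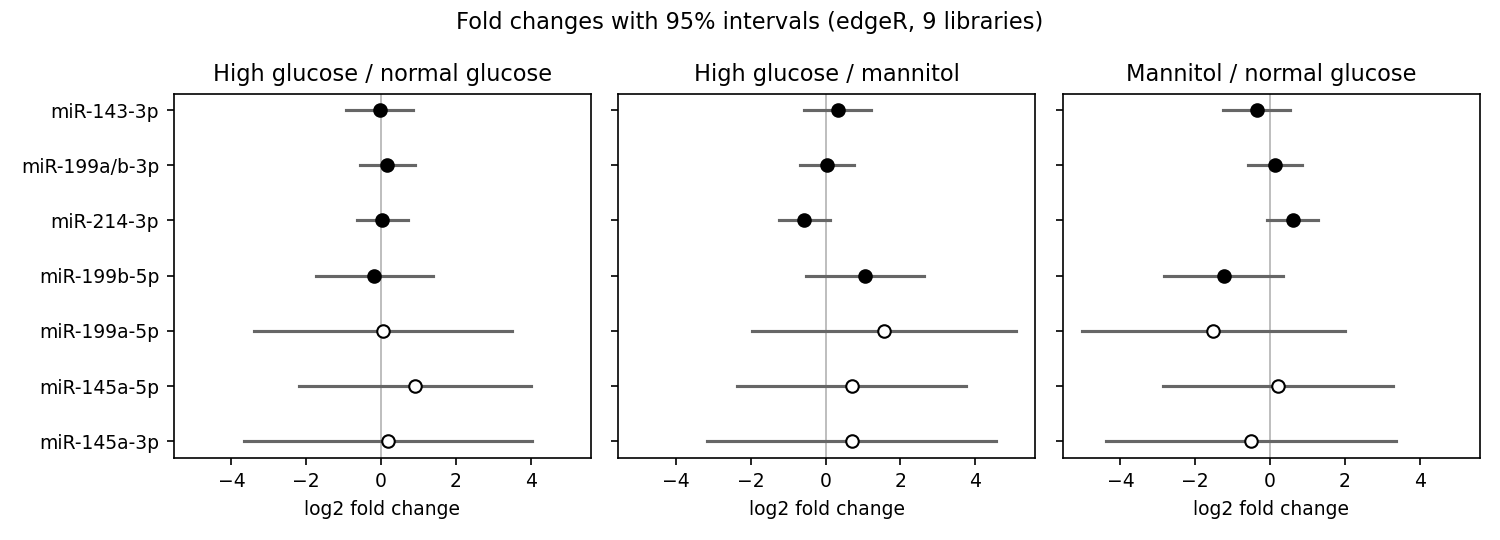
Log2 fold changes of the 7 tested members (points) with 95% intervals (lines) from edgeR over 9 libraries, in the 3 comparisons. Open points mark arms listed at 0 in some libraries. All 21 intervals include 0, and those of the arms with listed zeros are the widest, as for miR-199a-5p in high glucose against mannitol (log2 -1.98 to 5.10).

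Ratios between members within a library do not depend on how libraries are scaled. The ratio of miR-143-3p to its neighbour miR-145a-5p was 33.1 and 63.1 in high glucose replicates 1 and 3, 121, 215 and 51.4 with mannitol, and 58.1 and 127 in normal glucose replicates 1 and 3. In the second replicates of high glucose and of normal glucose it was at least 198 and at least 139. The arms of the neighbouring hairpins thus differed at least 33.1-fold in every library, and in the 7 libraries that listed both the ratio ran from 33.1 to 215. Because of the listed zeros this ratio was tested in no comparison.

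The ratio of miR-143-3p to miR-199a/b-3p was 5.63, 4.21 and 3.95 in high glucose, 3.43, 3.70 and 3.55 with mannitol, and 2.40, 4.24 and 8.16 in normal glucose. The high glucose and mannitol libraries did not overlap, at a log2 difference of 0.35 (exact permutation p = 0.1, two-sided, the smallest that 3 against 3 libraries allow). Over the 6 ratio tests the Benjamini-Hochberg adjusted exact p was 0.6. With a smallest p of 0.1 no ratio could pass 0.05, so these tests cannot decide whether a ratio differed. Normal glucose spanned both groups, with a log2 difference of 0.057 for high glucose against it (exact p = 1) and of -0.30 for mannitol against it (exact p = 0.7). The 3 mannitol libraries were close to each other, at an SD of 0.055 on the log2 scale against 0.27 in high glucose and 0.88 in normal glucose.

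The ratio of miR-199a/b-3p to miR-214-3p, whose hairpins share Dnm3os in part, was 1.61, 2.95 and 2.85 in high glucose, 1.52, 2.51 and 1.20 with mannitol, and 2.42, 2.42 and 2.05 in normal glucose. The groups overlapped. The log2 difference was 0.52 for high glucose against mannitol (exact permutation p = 0.2), -0.46 for mannitol against normal glucose (exact p = 0.4) and 0.058 for high glucose against normal glucose (exact p = 1). The adjusted exact p was 0.6 to 1. Since miR-199a/b-3p sums reads of 3 hairpins, the share that comes from Dnm3os cannot be read from this ratio.

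**Figure D4:**
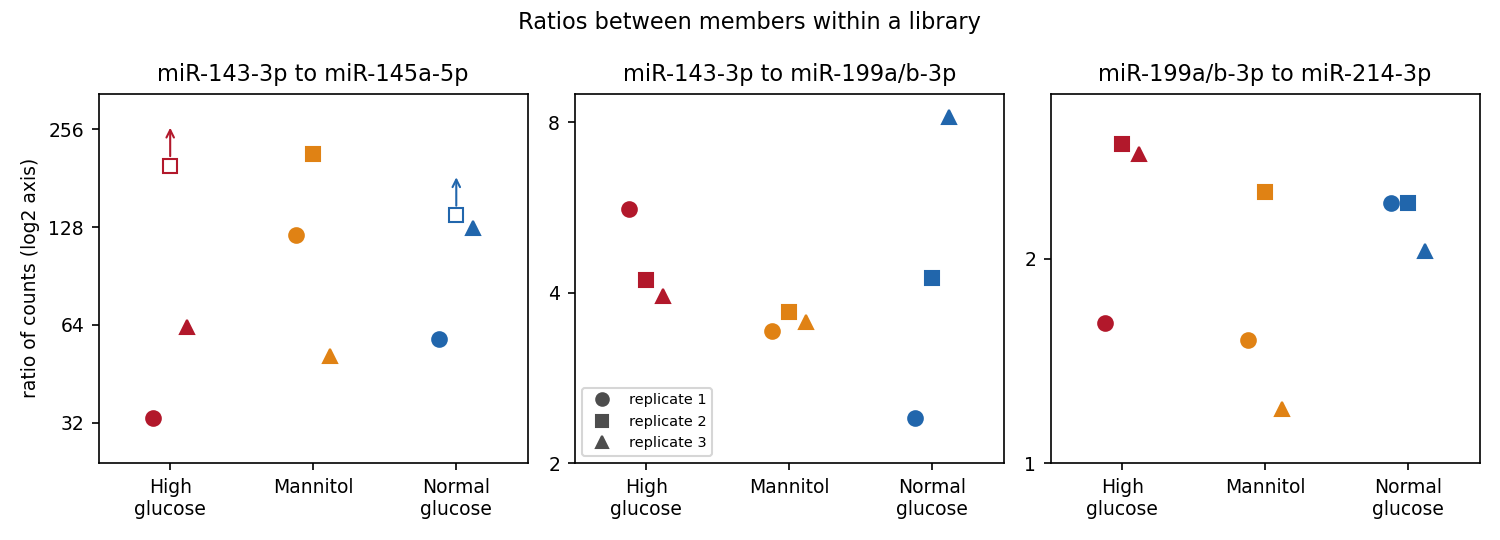
Ratios of counts between members within each library (log2 axes, each panel with its own range). Filled points are libraries with both members listed, and open points with arrows are lower bounds where miR-145a-5p was listed at 0 and taken as 9 reads. The ratio of miR-143-3p to miR-199a/b-3p lies between 3.43 and 3.70 in the mannitol libraries, below the 3.95 to 5.63 of high glucose, and spreads most in normal glucose (2.40 to 8.16).

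Across the 9 libraries the levels of the 4 members listed throughout were compared in 6 pairs, and none passed for r or for rho after adjustment. For miR-143-3p and miR-199a/b-3p Pearson's r of log2 CPM was 0.51 (exact permutation p = 0.159) and Spearman's rho was 0.77 (exact permutation p = 0.0214, adjusted p = 0.128 over the 6 pairs), and without the 2 libraries farthest from the median of miR-143-3p r was 0.70. For miR-143-3p and miR-199b-5p r was 0.67 (exact permutation p = 0.0528) and rho 0.23 (exact permutation p = 0.552). It rested on normal glucose replicates 1 and 3, without which r was 0.19. For miR-199a/b-3p and miR-214-3p r was 0.30 (exact permutation p = 0.429) and rho 0.25 (exact permutation p = 0.521), with r 0.44 without the 2 farthest libraries. For the other pairs r was 0.0053 to 0.20 (exact permutation p from 0.575 to 0.989), rho was -0.17 to 0.20 (exact permutation p from 0.613 to 0.843), and r without the 2 farthest libraries was -0.22 to 0.19. The adjusted exact permutation p was 0.317 to 0.989 for r and 0.128 to 0.843 for rho. Both levels of a point share a library, with its depth and composition.

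By a rule of highest Pearson's r over the 9 libraries, among the 255 other identifiers listed throughout, the profile most like that of miR-143-3p was miR-146a-5p (r = 0.86, rho = 0.70), then miR-130b-3p (r = 0.83) and miR-218-5p (r = 0.81). For miR-199a/b-3p these were miR-125b-2-3p (r = 0.91, rho = 0.97), miR-499-5p (r = 0.86) and miR-221-3p (r = 0.86). For miR-214-3p they were miR-451a (r = 0.87, rho = 0.82), miR-331-5p (r = 0.87) and miR-124-3p (r = 0.87). The 3 members had no name in common among these, and miR-218-5p and miR-221-3p belong to the list of related miRNAs described next. As the highest of 255 values each, they are a description only and carry no p-value.

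Other miRNAs of smooth muscle, fibroblasts and fibrosis were looked at beside the members. Of 18 on that list 15 were listed in some library and 13 were tested, and miR-195a-5p and miR-497a-5p were at 0 throughout, like miR-145b. The most abundant were miR-21a-5p, a growth and fibrosis miRNA averaging 65154 ± 15994 CPM (SD, n = 3, as for the values that follow) in high glucose, 50271 ± 22927 CPM in mannitol libraries and 53916 ± 3811 CPM in normal glucose libraries, and miR-24-3p, at 15217 ± 1474, 16911 ± 2364 and 14840 ± 2538 CPM in the same groups. Each thus stood above all 9 members together in every library. By edgeR none of the 13 passed in any comparison, and at an unadjusted p under 0.05 they numbered 0 each time. A muscle miRNA of this list and of the striated muscle list, miR-1a-3p, was called by edgeR in both comparisons with mannitol when no filter was applied. Its mean was 201 ± 89.3 CPM in high glucose, 1384 ± 2112 CPM for mannitol and 364 ± 479 CPM in normal glucose, with 3822 CPM in mannitol replicate 3. With the filter it was not called. Its log2 fold change there was -2.70 (SE 1.58) in high glucose against mannitol and 1.99 (SE 1.54) in mannitol against normal glucose. Fitted values were above 0 for 8 of 13 in each comparison, with a median of 0.15 in high glucose against normal glucose, 0.023 in high glucose against mannitol and 0.022 in mannitol against normal glucose. For miR-21a-5p the log2 fold change was 0.39 (SE 0.35), 0.51 (SE 0.35) and -0.12 (SE 0.35) in these comparisons.

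Markers of other cells moved between libraries too. All but 1 of the 8 blood and liver miRNAs were listed in some library, with miR-142a-3p at 0 throughout, and their summed level ran from 13495 to 25642 CPM in high glucose, from 15507 to 33520 CPM with mannitol and from 15523 to 30463 CPM in normal glucose. Mannitol replicate 3, the library with the highest miR-214-3p, also had the highest summed level of this list and the highest miR-451a, a red cell miRNA, at 399 CPM. Members of the list did not all follow, and miR-144-3p and miR-223-3p were at 0 in that library. The same library stood apart on some other lists, with the highest striated muscle sum (5994 CPM, against at most 3029 CPM elsewhere), the lowest podocyte miR-30 sum (106713 CPM) and the lowest epithelial sum (3382 CPM). Its endothelial sum (314 CPM) and its sum of the related smooth muscle, fibroblast and fibrosis list (99564.5 CPM) were neither lowest nor highest. In high glucose against mannitol the fitted values of the blood and liver list were above 0 for 2 of 6 tested members, with a median of -0.39 and a range from -0.88 (SE 0.36) for miR-486a-5p to 0.88 (SE 2.31) for miR-223-3p, and miR-451a had -0.57 (SE 0.32). The part of other cells' RNA or of this library's composition in the miR-214-3p values was not tested. The list's leading member, the liver miRNA miR-122-5p, had a mean ± SD (n = 3 each) of 13668 ± 6430 CPM for high glucose, 17046 ± 5427 CPM for mannitol and 17097 ± 6636 CPM for normal glucose, and in every library it was above miR-143-3p.

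The 6 epithelial miRNAs were all listed in some library and summed to 3999 to 5274 CPM in high glucose, 3382 to 4653 CPM with mannitol and 3477 to 4321 CPM in normal glucose, led by miR-200b-3p and miR-200a-3p. In every library this lay above the summed level of the mesenchymal members. The 2 endothelial arms of miR-126a summed to 276.5 to 678 CPM in high glucose, 308 to 344 CPM with mannitol and 229 to 825 CPM in normal glucose, and the 3 striated muscle miRNAs to 1401 to 1761 CPM, 1368 to 5994 CPM and 1666 to 3029 CPM in those groups. Of the 21 tested members of these marker lists, which include the 5 miR-30 arms, 0 passed in edgeR in any comparison. At an unadjusted p under 0.05 they numbered 1 in high glucose against normal glucose, 2 in high glucose against mannitol and 1 in mannitol against normal glucose.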

How the data were processed

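Small RNA libraries of vesicles were analysed from 9 deposited tables of 1915 identifiers. The submitters' processing notes name bcl2fastq, BWA and the build mm10 without versions, and how reads were counted is not stated there. The deposited counts were used as they stood. The deposited normalized values are RPM values, equal to the count over a constant per library, of which miRNA counts were 3.43% to 9.71%; what it counts is not given. Groups came from the treatment labels; a title without a number was read as replicate 1. Libraries of a group differed well beyond counting error (chi-square per degree of freedom 88.1 to 765 over 9 pairs), which shows no copied table but does not tell apart repeat preparations of 1 sample. Deviations of same-number libraries from their group means correlated at 0.296 to 0.322 between high and normal glucose, over 0.1 in 3 of 3 pairs. Between high glucose and mannitol they correlated at 0.043 to 0.68, and between mannitol and normal glucose at 0.084 to 0.49. In each of these 2 comparisons 2 of 3 pairs were over 0.1. No label states a pairing. The reported fits and ratio tests used no block in any comparison, and a block by title number was an alternative.

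Members and lists were chosen with earlier results of these data known. All 9 libraries entered edgeR 4.0.16 (R 4.3.3) with TMM scaling, filtering by group (minimum count 10), a robust quasi-likelihood test and Benjamini-Hochberg adjustment over 361 miRNAs, threshold 0.05, and the fit was checked on simulated data. DESeq2 1.42.0, limma 3.58.1, other scalings, no filter, zeros set to 9 reads, merged identical identifiers, 2-group fits, a replicate block and leaving out each library were alternatives. Ratios were compared by exact permutation, two-sided. All 10 members are named, with the 3 other miRNAs of highest r for the main arm of each locus and, per list, those past the threshold or else the most abundant 2. For miR-145a-5p, at 0 in 2 libraries, no such r was computed. From the lists, miR-451a, miR-144-3p, miR-223-3p and miR-1a-3p were named after their values were seen.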

Additional observations from a re-analysis of the deposited data

How the results depend on the processing

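None of the 21 member fold changes passed under any alternative, and 334 of 378 values under alternatives had the sign of the reported one. An unadjusted p under 0.05 occurred for 10 of these 378 values, 7 of them of miR-214-3p. Scaled to the library constant, these were -1.17 in high glucose against mannitol and 1.18 in mannitol against normal glucose. Of all tested miRNAs 61 and 15 had such a p there. With the replicate block miR-214-3p had -0.53 and 0.56 (52 and 17 of all). In the second it had 0.76 to 0.78 without mannitol replicate 1 or 2 or normal glucose replicate 3 (1, 36 and 2 of all). With zeros set to 9 reads (35 and 14 of all) the others were miR-199a-5p (1.32 and -1.35) and miR-199b-5p (-1.20 in the second). The number of all miRNAs called was 0 in high glucose against normal glucose, high glucose against mannitol and mannitol against normal glucose. Without the expression filter it became 2, 3 and 1 in that order. In high glucose against mannitol it was 1 by DESeq2 and 0 to 1 with a library left out (1 without mannitol replicate 2). None of these was a member. With library constants as the scale, all tested miRNAs had a median of -0.12, -0.59 and 0.50, and values changed sign for miR-143-3p (0.0080, -0.18 and 0.19 in these comparisons), miR-199a-5p (-0.38 in high glucose against normal glucose), miR-145a-5p (-0.018) and miR-199a/b-3p (-0.43) in high glucose against mannitol, and miR-145a-3p (0.14 in mannitol against normal glucose). By limma-voom they did so in high glucose against normal glucose for miR-143-3p (0.17), miR-199a-5p (-0.29) and miR-199b-5p (0.37), in high glucose against mannitol for miR-145a-5p (-0.30) and in mannitol against normal glucose for miR-145a-3p (0.085). With zeros set to 9 reads they did so for miR-199a-5p (-0.032, high glucose against normal glucose) and miR-145a-5p (-0.093, mannitol against normal glucose). The cause was not tested. Of the 9 same-number pairs all had positive deviation correlations (0.043 to 0.68) and 7 were over 0.1, all 3 of high and normal glucose among them, and 7 of 9 libraries correlated best with their own number, a hint from the data and not from the labels. With the number as a replicate block the count called stayed at 0 in all 3 comparisons, miRNAs at an unadjusted p under 0.05 numbered 19, 52 and 17, and values changed sign for miR-143-3p (0.11) and miR-199a-5p (-0.025) in high glucose against normal glucose, miR-145a-5p (-0.46) and miR-199a-5p (-0.15) in high glucose against mannitol, and miR-199a-5p (0.12) in mannitol against normal glucose.

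With a library left out, log2 fold changes whose sign turned ranged in high glucose against normal glucose from -0.40 to 0.57 for miR-143-3p, -0.41 to 0.68 for miR-145a-3p, -0.029 to 0.39 for miR-199a/b-3p, -1.06 to 0.77 for miR-199a-5p, -0.75 to 0.62 for miR-199b-5p and -0.067 to 0.15 for miR-214-3p. In high glucose against mannitol miR-199a/b-3p ranged from -0.18 to 0.30, and in mannitol against normal glucose ranges were -0.72 to 0.31 for miR-143-3p, -0.62 to 1.12 for miR-145a-5p, -1.43 to 0.063 for miR-145a-3p and -0.028 to 0.35 for miR-199a/b-3p. Where the sign held, ranges not given in the report were 0.091 to 0.62 for miR-143-3p and -0.74 to -0.24 for miR-214-3p in high glucose against mannitol, and -2.10 to -0.79 for miR-199a-5p, -1.59 to -0.36 for miR-199b-5p and 0.27 to 0.78 for miR-214-3p in mannitol against normal glucose. Log2 ratio differences ranged from -0.10 to 0.34 for miR-199a/b-3p to miR-214-3p and from -0.37 to 0.51 for miR-143-3p to miR-199a/b-3p in high glucose against normal glucose, and from -0.73 to 0.16 for the second in mannitol against normal glucose. On the deposited RPM scale the correlation of miR-199a/b-3p and miR-214-3p was 0.82 (exact permutation p = 0.00765, adjusted p = 0.0459) and passed. A separate alternative, log2 CPM centred within groups, gave 0.19, and RPM values were not centred. The share of miRNA in the constant differs between libraries and enters both members on the RPM scale, and its part in this correlation was not tested. Depth limits the rare arms: at 10 reads the floor is 3.92 to 13.8 CPM.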

Other observations

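The arm miR-145a-3p was listed at 0 in replicate 1 of high glucose, of mannitol and of normal glucose, and in all 6 other libraries at 13 to 35 counts. Of the 479 identifiers listed in any library it was the only 1 with that pattern (0.209%), among 26 listed in exactly 6 libraries, and it was picked out after its values were seen. In high glucose replicate 1, the shallowest library, 9 unlisted reads would be 12.4 CPM, close to the 14.9 and 13.7 CPM of the other high glucose libraries, so that a lower level is not detectable at this depth there. In normal glucose replicate 1 the most that a listed 0 allows is 5.85 CPM, below the 11.96 and 17.2 CPM of the other normal glucose libraries. In mannitol replicate 1 it is 6.77 CPM, against 12.6 and 7.05 CPM in the other mannitol libraries.

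Both miR-145a-5p and miR-199a-5p were listed at 0 in replicate 2 of high glucose and of normal glucose, while miR-145a-3p was listed in both libraries at 19 and 13 counts. Mannitol replicate 2 did not share this, with 11 counts of miR-145a-5p and 16 of miR-199a-5p, and there miR-199a-5p was at 0 in replicate 1. The 5p to 3p ratio of miR-145a was at most 0.474 and at most 0.692 in replicate 2 of high glucose and of normal glucose, against at least 2.89 and at least 2 in their replicate 1. With mannitol it was at least 1.11 in replicate 1 and 0.550 in replicate 2. The ratio of miR-199a-5p to miR-199b-5p was 2.14 and 2.5 in replicate 1 of high glucose and of normal glucose, but 0.418 and 0.419 in replicate 3 of these groups. Mannitol libraries did not follow this order, at a ratio of at most 0.5 in replicate 1, 1.07 in replicate 2 and 0.621 in replicate 3. No test was run on either pattern.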
